A study of Mus musculus with 2 samples.

Results

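Classical monocytes of the lung were taken from single-cell transcriptomes by a gate on marker transcripts, and were compared after hepatic ischemia-reperfusion (HIR) and after a sham operation. A barcode was a member with at least 2 UMIs (unique molecular identifiers, the tags by which captured transcripts are counted) of Fcnb and Mnda together and at least 2 UMIs of Vcan and Fn1 together. S100a8 and S100a9 had to stay under 5% of its UMIs, C1qa, C1qb and C1qc under 10 UMIs, Plet1 and Krt79 under 3 UMIs and Siglech under 3 UMIs. The gate held 453 of 8593 kept HIR barcodes and 361 of 9438 kept sham barcodes, 814 of 18031 in all. Barcodes were kept when 200 or more genes were detected and mitochondrial transcripts made up no more than 20% of UMIs.

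The HIR library came from lungs of wild type mice 6 hours after the blood supply of the liver had been blocked and restored, and the sham library from lungs of wild type mice after sham surgery, with 1 droplet library (10x Genomics) per group. Per the labels, lungs were digested with collagenase, elastase and DNase, and red cells were lysed. The labels do not say how many mice went into a library, and the time after sham surgery is not given. The labels name the mouse, while all 32883 features carry rat Ensembl identifiers, so symbols are given as in the files and no coordinates or sequences are shown.

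Classical monocytes are short-lived phagocytes that leave the bone marrow for the blood and enter inflamed tissue, where they can mature into macrophages or dendritic cells. They sense microbial products and tissue damage through receptors such as CD14 and the Toll-like receptors, which act through NF-kB to switch on cytokines and chemokines. In the lung they are found both in the capillary bed and, after injury, in the tissue itself. Fcnb encodes ficolin-B, a secreted pattern recognition lectin, Vcan and Fn1 encode the matrix proteins versican and fibronectin, and Mnda encodes a nuclear antigen of myeloid cells.

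Each group is 1 library, so nothing could be tested against a spread between replicates. Levels are CPM, counts per 1000000 UMIs summed over the cells named. Ranges in parentheses are 95% counting intervals, which hold neither animal nor library error. For levels they treat each UMI as independent, so they leave out the spread between cells as well. They are thus too narrow where few cells hold most UMIs of a gene. Members had a median of 9685 UMIs in the HIR library and 7213 UMIs in the sham library. The libraries shared 24 barcode sequences, 0 of them members in both. A doublet score marked 10 HIR and 7 sham myeloid members, and 39 HIR and 42 sham other members.

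The gate did not hold myeloid cells alone. Of its members, 122 in the HIR library (26.9%) and 143 in the sham library (39.6%) carried RNA of another lineage or few transcripts of the myeloid adaptors Tyrobp and Fcer1g. Stromal transcripts (at least 5 UMIs of Col1a1, Col3a1, Dcn, Lum and Pdgfra) marked 86 of these in the HIR library and 119 in the sham library. Endothelial transcripts marked 32 in the HIR library and 24 in the sham library, and 67 and 97 of the HIR and sham barcodes had no UMI of the leukocyte gene Ptprc. In these barcodes the collagen gene Col3a1 reached 5920 CPM in the HIR library and 11300 CPM in the sham library. Fn1 stood there at 1550 CPM in the HIR library and 1110 CPM in the sham library and Mnda at 301 and 280 CPM in HIR and sham, and these genes alone are enough to pass the gate. Fewer than 10 UMIs of Tyrobp and Fcer1g were found in 74 of the 122 HIR and 108 of the 143 sham barcodes, and the others did carry myeloid transcripts. Over all these barcodes Fcnb stood at 1260 CPM in HIR and 325 CPM in sham, and Lyz2 at 22900 CPM and 10200 CPM in HIR and sham.

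**Figure D1:**
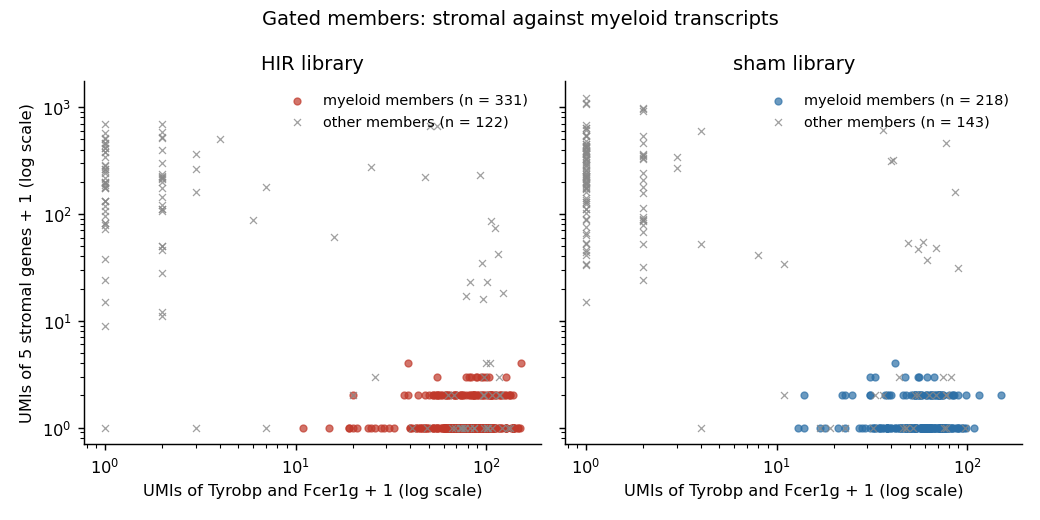
UMIs of the 5 stromal genes (vertical axis) against UMIs of Tyrobp and Fcer1g (horizontal axis) in each gated barcode of the HIR library (left) and the sham library (right), both axes logarithmic after adding 1. Circles are the 331 HIR and 218 sham myeloid members and crosses the 122 HIR and 143 sham other members, most of which lie at the upper left with many stromal and few myeloid transcripts.

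The remaining 331 HIR and 218 sham barcodes are called the myeloid members. This subset was defined after the values were seen, so results are given for it and, where they differ, for all gated members. The subset was cut on stromal, endothelial, B cell, T cell, Scgb1a1 and hemoglobin transcripts, so their low levels in it follow from its definition. Stromal markers stood at 28.8 CPM in the HIR library and 43.8 CPM in the sham library. Mast cell and platelet markers, which the definition did not use, had no gene at 20 CPM in either library. Alveolar epithelial markers, with the surfactant genes among them, summed to 7350 CPM in the HIR library and 6190 CPM in the sham library. At least 3 UMIs of them were found in 330 of 331 HIR and in all 218 sham myeloid members. Of the 5 with at least 20 CPM in either library, 4 were higher in HIR, 3 of them over 2-fold (against 3.02% of all genes). Hopx ran the other way, at 1959 CPM in HIR and 3165 CPM in sham. The part of these markers in the results was not tested.

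The myeloid members carried the RNA that the name classical monocyte calls for, apart from a few markers that were at or near 0. Cd14, the endotoxin co-receptor that the gate did not use, stood at 886 CPM in the HIR library and 324 CPM in the sham library. Plac8, which is abundant in blood monocytes, stood at 8566 CPM in the HIR library and 8481 CPM in the sham library. Lysozyme (Lyz2) stood at 57200 CPM and 36110 CPM in HIR and sham. Neither Plac8 nor Cd14 is particular to these members. Plac8 stood at 2420 CPM in HIR and 2350 CPM in sham B cells, with a UMI in 97.3% and 94.5% of them. Cd14 stood at 552 CPM and 276 CPM in HIR and sham C1q macrophages. In HIR and sham nonclassical monocytes Cd14 stood at 339 CPM and 64.6 CPM. These levels were lower than those of the myeloid members of the same library. Among the myeloid members Ly6c and Chi3l3 had 0 UMIs in both libraries. Chi3l3 also stood at 0 CPM in the nonclassical monocytes, macrophages, neutrophils, B cells, endothelial and stromal cells of both libraries, so its absence is not particular to these members. F13a1 had 5 UMIs in the HIR library and 0 in the sham library. Of the 14 markers listed, 11 had a row in the files and the others were not analysed here.

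Markers of neighbouring cell types were low but not absent. The nonclassical monocyte markers summed to 703 CPM in the HIR library and 1190 CPM in the sham library. Most of this was Nr4a1, an immediate early transcription factor, at 524 CPM in the HIR library and 824 CPM in the sham library, and Cx3cr1, the fractalkine receptor of patrolling monocytes, had 4 UMIs in the HIR library and 37 UMIs in the sham library. Of the 7 nonclassical markers with at least 20 CPM in either library, 0 were higher in HIR and 2 were over 2-fold lower (against 3.41% of all genes). Their median log2 ratio was -0.9. The neutrophil markers other than S100a8 and S100a9 summed to 950 CPM in the HIR library and 1160 CPM in the sham library. Among them G0s2, a regulator of fat breakdown, stood at 592 CPM in the HIR library and 1043 CPM in the sham library. G0s2 is not particular to neutrophils here. It stood at 2090 CPM and 2620 CPM in HIR and sham neutrophils, and at 3570 CPM and 3140 CPM in HIR and sham nonclassical monocytes. Of the 5 neutrophil markers with at least 20 CPM in either library, 4 were higher in HIR. Of these, 2 were over 2-fold higher (against 3.02% of all genes), and the median log2 ratio of the 5 was 0.95. Il1r2 and Lcn2, described below, are on this marker list. The neutrophil receptor Cxcr2 had 28 UMIs in the HIR library and 1 UMI in the sham library.

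Of the genes that define the gate, Fcnb and Vcan stood higher in HIR myeloid members, and Fn1 at the same level. These levels describe how members were chosen and support nothing further. Fcnb stood at 3403 CPM in the HIR library and 2170 CPM in the sham library, Vcan at 1574 CPM and 563 CPM in HIR and sham. Fn1 stood at 2929 CPM in the HIR library and 2930 CPM in the sham library, and Mnda at 409 CPM and 343 CPM in HIR and sham. When each cell was thinned to 2000 UMIs, Vcan was detected in 81.8% of HIR and 41.7% of sham myeloid members, against 92.1% and 65.6% of HIR and sham cells before thinning. Thinning left out 2 cells in each library.

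Classical monocytes took a larger share of the HIR library by the gate as set. All gated members made up 5.27% (4.81 to 5.77) of kept HIR barcodes and 3.82% (3.45 to 4.23) of kept sham barcodes, a ratio of 1.38 (1.20 to 1.59). The myeloid members made up 3.85% (3.45 to 4.28) of the HIR library and 2.31% (2.02 to 2.63) of the sham library, a ratio of 1.67 (1.40 to 1.99). With barcodes thinned to 2000 UMIs before gating the ratio over all members was 2.14, and 2.65 where at least 2 UMIs of Fcnb and at least 2 UMIs of Vcan were asked for. With S100a8 and S100a9 held under 0.1% of UMIs it turned to 0.770 (0.645 to 0.918), and to 0.825 (0.652 to 1.04) among myeloid members. The direction thus turned with the limit on S100a8 and S100a9, and no other alternative that was run turned it.

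Members close to the gate's limits were counted on both sides. Exactly 2 UMIs of Fcnb and Mnda were found in 57 HIR and 90 sham members, and 101 HIR and 180 sham barcodes that met the rest of the gate had exactly 1. For Vcan and Fn1, 20 HIR and 19 sham members had exactly 2 UMIs, and 18 HIR and 21 sham barcodes had exactly 1. The S100 limit alone kept out 74 HIR barcodes and 1 sham barcode. Of these, 62 in the HIR library and 1 in the sham library met the definition of myeloid members.

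S100a8 and S100a9, the calprotectin subunits that neutrophils and classical monocytes store in their cytosol, also differed between the libraries. The gate caps them, so they are given as a description. S100a8 stood at 9424 CPM in HIR myeloid members and 942 CPM in sham myeloid members, and S100a9 at 4164 CPM and 428 CPM in HIR and sham. Per 10000 UMIs the median cell had 20.5 of S100a8 in the HIR library and 1.16 in the sham library, and the cell at the 90th percentile 230.0 in HIR and 22.9 in sham. The HIR cells thus spread over a wide range, and most sham cells sat near 0.

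Free RNA was read from B cells, which should lack both genes. HIR B cells had 346 CPM of S100a8 and sham B cells 23.0 CPM. After thinning, a UMI of S100a8 was found in 72.6% of HIR and 34.7% of sham myeloid members (89.1% and 52.8% in HIR and sham before thinning), and in 41.7% of HIR and 4.04% of sham B cells. Thinning used 422 HIR and 495 sham B cells, whose classes had median depths of 2542 UMIs and 2283 UMIs in HIR and sham, against 9548 UMIs and 7014 UMIs in the HIR and sham myeloid members. The ratio of S100a8 to S100a9 was 2.26 (2.22 to 2.31) in HIR and 2.20 (2.01 to 2.41) in sham myeloid members. It was 0.985 (0.981 to 0.988) in HIR and 0.751 (0.743 to 0.758) in sham neutrophils, and 0.916 (0.812 to 1.03) in HIR and 0.627 (0.434 to 0.897) in sham B cells. In nonclassical monocytes, with few UMIs of either gene, it was 1.18 (0.691 to 2.02) in HIR and 1.40 (0.578 to 3.52) in sham. The gates use both genes, so these ratios are a description.

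Other transcripts followed the S100 share among HIR myeloid members. With S100a8 and S100a9 under 0.1% of UMIs (130 cells), Fcnb stood at 1740 CPM and Fn1 at 1590 CPM, against 4490 CPM and 3610 CPM for the same genes at 3% to 5% (50 cells). Csf1r, the receptor for the monocyte growth factor CSF1, ran the other way, with 691 CPM under 0.1% and 178 CPM at 3% to 5%. In nonclassical monocytes Csf1r stood at 1030 CPM in HIR and 827 CPM in sham, and in C1q macrophages at 886 CPM and 1050 CPM in HIR and sham. Among the HIR myeloid members G0s2 stood at 1660 CPM under 0.1% and 97.9 CPM at 3% to 5%, and the MHC class II gene RT1-Da at 2050 CPM and 11.4 CPM in the same bins. Just outside the limit, the 30 HIR cells at 5% to 7% had 4680 CPM of Fcnb, 3840 CPM of Fn1 and 180 CPM of Csf1r, close to the cells just inside. Cells on both sides of the limit had to pass the gate on Fcnb, Mnda, Vcan and Fn1, so their Fcnb and Fn1 levels are a description. These bins were set after the values were seen.

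**Figure D2:**
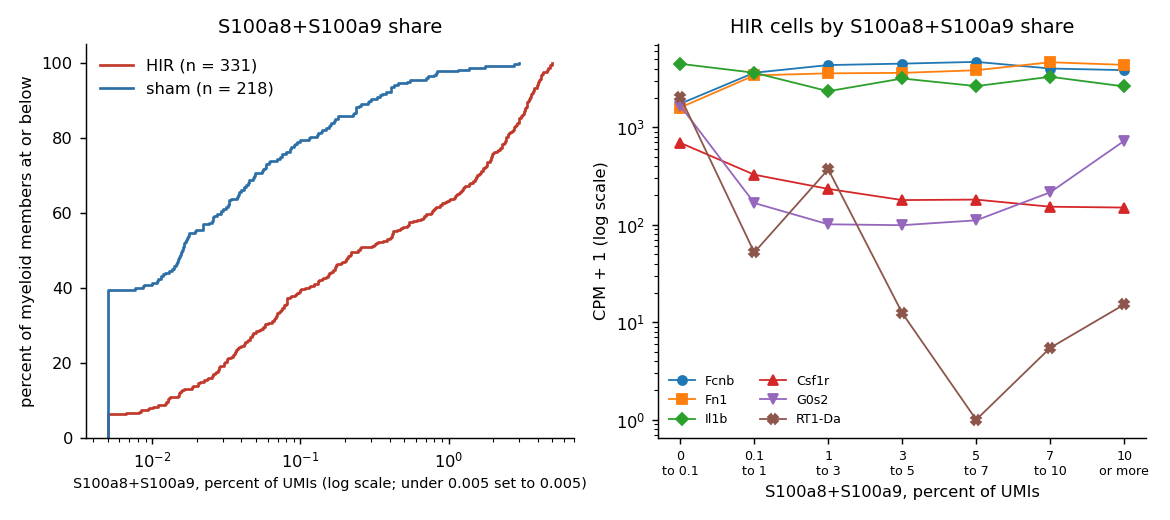
Left: percent of myeloid members (vertical axis) at or below a given S100a8 and S100a9 share of UMIs (horizontal axis, logarithmic) for 331 HIR and 218 sham cells, with the HIR curve to the right of the sham curve. Right: summed CPM plus 1 (logarithmic axis) of 6 genes in HIR myeloid cells binned by that share, including the cells above the 5% limit, with Fcnb and Fn1 lowest and Csf1r, G0s2 and RT1-Da highest in the first bin.

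The same bins in both libraries allowed HIR and sham cells of like S100 share to be set side by side. Under 0.1% (130 HIR and 173 sham cells) Sod2 stood at 4300 CPM in HIR and 829 CPM in sham cells, and Il1b at 4470 CPM and 1740 CPM in HIR and sham. From 0.1% to 1% (79 HIR and 40 sham cells) Sod2 stood at 3920 CPM in HIR and 740 CPM in sham cells, and Il1b at 3620 CPM and 1260 CPM in HIR and sham. The chemokine Ccl2 ran the other way, with 798 CPM in HIR and 2340 CPM in sham cells under 0.1%, and 1250 CPM and 4540 CPM in HIR and sham from 0.1% to 1%. The differences in Sod2, Il1b and Ccl2 were thus present in both bins.

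Across all genes, a small share passed 2-fold between the 2 libraries' myeloid members, with no spread between replicates to judge it against. Of 4630 genes with at least 20 CPM in either library, 140 (3.02%) were over 2-fold higher and 158 (3.41%) over 2-fold lower in HIR, on log2 values with 10 CPM added, and the median log2 ratio was -0.04. Among all gated members 134 of 5382 genes (2.49%) were over 2-fold higher and 209 (3.88%) over 2-fold lower. These counts depend on the CPM added. With 1 CPM in place of 10, the lower genes among myeloid members numbered 304. The 15 genes named in each direction are those with the largest ratios among well-counted genes that are not markers of other cell types. Of those named among all members, 10 of 15 higher genes and 2 of 15 lower genes were also named among myeloid members.

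Some genes named lower in the whole gate are known from airway or stromal cells. Scgb1a1, the secretory protein of airway club cells, stood at 473 CPM in HIR and 21100 CPM in sham members, and 1 sham barcode of 120107 UMIs held 51.5% of its UMIs as Scgb1a1. Sfrp2, a Wnt modulator of fibroblasts, stood at 20.04 CPM in HIR and 189 CPM in sham members, and Rbp4, a retinol carrier, at 54.6 CPM and 314 CPM in HIR and sham. Among myeloid members the log2 ratio of Scgb1a1 was 0.42, and those of Igfbp4 and Pola2, both named lower in the whole gate, were 0.04. Myeloid members were cut on Scgb1a1 and on stromal transcripts, so the Scgb1a1 ratio there is no independent result. The genes below are described in myeloid members.

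Of the 15 genes named higher in HIR, 3 were chemokines. Cxcl10 (ENSRNOG00000022256), which attracts T cells and NK cells through CXCR3, stood at 114 CPM in HIR and 4.45 CPM in sham myeloid members, a ratio of 25.7 (12.4 to 64.4). Cxcl1, a neutrophil attractant, stood at 665 CPM in HIR and 79.4 CPM in sham, a ratio of 8.37 (6.99 to 10.1). Cxcl16, a membrane-bound chemokine and scavenger receptor, stood at 179 CPM in HIR and 43.9 CPM in sham, a ratio of 4.09 (3.18 to 5.32). Few cells carried the first of these. Cxcl10 was detected in 74 of 331 HIR and 4 of 218 sham cells, and the 34 HIR cells with most of it held 87.8% of its UMIs.

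The chemokine list was split between the directions. Of 17 measured chemokines and receptors, 5 were over 2-fold higher in HIR (Cxcl10, Cxcl1, Ccl4, Cxcl16 and Cxcl2) and 5 over 2-fold lower (Ccl7, Cxcr4, Cx3cr1, Ccl2 and Ccl17), against 3.02% and 3.41% of all genes, with a median log2 ratio of 0.29. The median was 0.73 where S100a8 and S100a9 were held under 0.1%. Ccl2, the main monocyte attractant, stood at 917 CPM in HIR and 2741 CPM in sham, and Ccl7, which shares its receptor, at 5.05 CPM and 82.0 CPM in HIR and sham. Ccl7 was found in only 5 HIR and 18 sham cells, and 46 of its 129 sham UMIs were in 1 cell. Ccl3, another inflammatory chemokine, stood at 1783 CPM in HIR and 1676 CPM in sham, a ratio of 1.06 on these levels.

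Ccl2 and Cxcl2 were found in many cells, though unevenly. Cxcl2, another neutrophil attractant, stood at 2406 CPM in HIR and 898 CPM in sham, and had a UMI in 247 of 331 HIR and 111 of 218 sham cells. Ccl2 had a UMI in 208 HIR and 166 sham cells. The 34 HIR and 22 sham cells with most Cxcl2 held 41.0% and 66.6% of its UMIs in HIR and sham. For Ccl2 the shares in as many cells were 52.5% in HIR and 40.7% in sham. Ccl4 was found in 37 HIR and 6 sham cells, and 34 of the HIR cells held 99.0% of its UMIs.

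Among cytokines, the largest ratio belonged to a decoy receptor. Il1r2, which binds interleukin-1 without signalling, had 451 UMIs (134 CPM) in HIR and 2 UMIs (1.27 CPM) in sham myeloid members, a ratio of 105.5 (29.0 to 874). After thinning it was detected in 17.3% of HIR and 0.463% of sham cells, and in 0.948% of HIR and 0 of 495 sham B cells, which allows a share of cells with a UMI of up to 0.606% (3 counts of the total). Neutrophils carried more of it, at 1630 CPM in HIR and 400 CPM in sham. Il6, a cytokine that drives the acute-phase response of the liver, stood at 91.0 CPM in HIR and 4.45 CPM in sham, and was found in 74 HIR and 5 sham cells.

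Il1b, the interleukin-1 that Il1r2 captures, was already high in sham cells. It stood at 3440 CPM in HIR and 1656 CPM in sham, and after thinning it was detected in 90.6% of HIR and 74.5% of sham cells, against 6.87% of HIR and 1.82% of sham B cells. Of 20 measured cytokines and receptors these 3 were over 2-fold higher and 0 over 2-fold lower, against 3.02% and 3.41% of all genes, and the median log2 ratio was -0.15 (0.04 with S100a8 and S100a9 under 0.1%). The receptor chains for interferon gamma were on opposite sides of 1. Ifngr2 stood at 216 CPM in HIR and 125 CPM in sham, and Ifngr1 at 282 CPM and 465 CPM in HIR and sham.

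NF-kB subunits and target genes were the list with the most uniform direction. Of 22 measured members 20 were higher in HIR, 12 of them over 2-fold (against 3.02% of all genes), none was over 2-fold lower, and the median log2 ratio was 1.06, against -0.04 for all genes. Sod2, the mitochondrial superoxide dismutase, stood at 3758 CPM in HIR and 812 CPM in sham, a ratio of 4.63 (4.37 to 4.91). Per 10000 UMIs its median was 38.8 in HIR and 7.07 in sham cells, and the 10th percentile of HIR cells, 15.7, lay above the sham upper quartile of 12.1. Sod2 levels in single cells of the libraries thus overlapped little.

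Feedback inhibitors of NF-kB were among the higher members. Nfkbia, which holds NF-kB in the cytosol, stood at 1655 CPM in HIR and 655 CPM in sham, and Tnip1, which dampens the same pathway, at 273 CPM and 77.5 CPM in HIR and sham. Tnip3 had 121 UMIs in HIR and 3 UMIs in sham. The subunit gene Nfkb2 stood at 188 CPM in HIR and 54.0 CPM in sham, while Rel stood at 132 CPM and 154 CPM in HIR and sham. Bcl2a1, a survival factor, stood at 1641 CPM in HIR and 1612 CPM in sham. Nfkbia is also common in B cells, where a UMI was found in 82.7% of HIR and 83.6% of sham cells after thinning. In endothelial cells it was found in 94.0% of HIR and 57.7% of sham cells, and in myeloid members in 87.5% and 61.6% of HIR and sham cells. Its rise was thus not particular to monocytes.

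**Figure D3:**
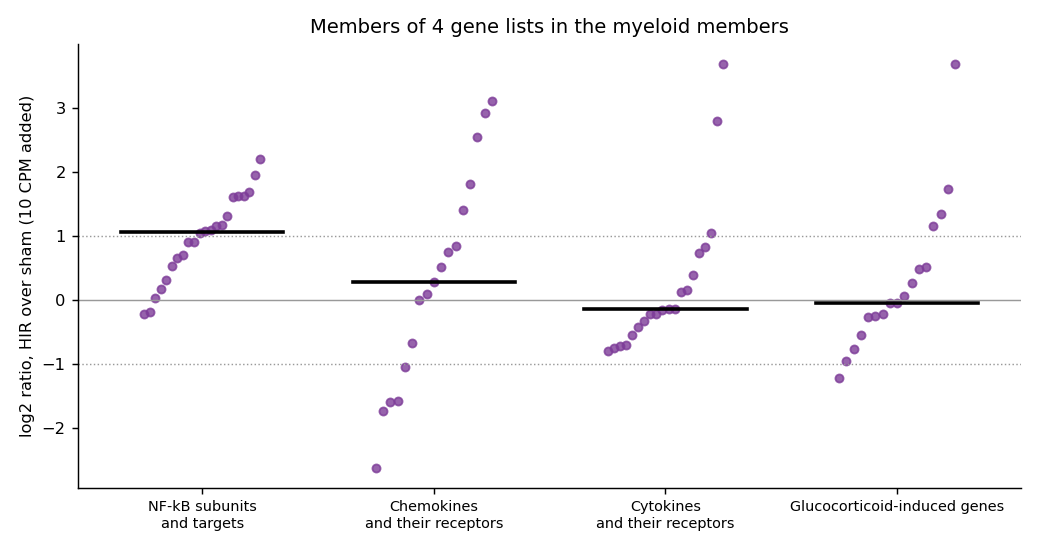
Log2 ratio of HIR over sham (10 CPM added, vertical axis) of each measured gene in 4 lists in the myeloid members, with 1 point per gene and a black bar at the list's median; dotted lines mark 2-fold. The medians were 1.06 for NF-kB, 0.29 for chemokines, -0.15 for cytokines and -0.04 for glucocorticoid-induced genes.

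Among the other genes named higher, Creld2, Pdia4 and Hyou1, all proteins of the endoplasmic reticulum, stood at 108, 109 and 109 CPM in HIR and 12.7, 21.6 and 24.2 CPM in sham. Slpi, a secreted inhibitor of neutrophil elastase, stood at 2673 CPM in HIR and 520 CPM in sham, a ratio of 5.14 (4.79 to 5.53). Ctsc, which encodes cathepsin C, the activator of granule serine proteases, stood at 279 CPM in HIR and 59.7 CPM in sham. Slpi was detected in 290 of 331 HIR and 143 of 218 sham cells.

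Arl5c, an Arf-like GTPase, stood at 517 CPM in HIR and 57.8 CPM in sham, a ratio of 8.93 (7.23 to 11.2), and had a UMI in 280 HIR and 54 sham cells. Ehd1, which recycles membrane proteins from endosomes, stood at 448 CPM in HIR and 76.3 CPM in sham. Bcat1, which transfers the amino group of branched-chain amino acids, stood at 166 CPM in HIR and 29.2 CPM in sham, and the hexose transporter gene Slc2a6 at 179 CPM and 35.6 CPM in HIR and sham. The Schlafen family gene Slfn4 stood at 221 CPM in HIR and 45.1 CPM in sham, and N4bp1, a ribonuclease and inhibitor of NF-kB signalling, at 175 CPM and 39.4 CPM in HIR and sham.

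Of the genes named lower in HIR, Ramp1, a subunit of the receptor for the neuropeptide CGRP, stood at 22.6 CPM in HIR and 229 CPM in sham, a ratio of 0.0985 (0.0759 to 0.126), and had a UMI in 57 of 331 HIR and 154 of 218 sham cells. Cxcr4, the receptor for CXCL12 that retains leukocytes in the bone marrow, stood at 197 CPM in HIR and 677 CPM in sham, a ratio of 0.290 (0.263 to 0.320). S1pr4, a receptor for sphingosine 1-phosphate, stood at 40.1 CPM in HIR and 188 CPM in sham, a ratio of 0.214 (0.173 to 0.263). Cytip, which limits integrin adhesion, stood at 125 CPM in HIR and 465 CPM in sham.

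Other lower genes had varied roles. Rara, the retinoic acid receptor alpha, stood at 157 CPM in HIR and 529 CPM in sham, and Tgfbi, a matrix protein made by monocytes and macrophages, at 93.3 CPM and 325 CPM in HIR and sham. Mal, a lipid raft protein, stood at 438 CPM in HIR and 1347 CPM in sham, but its log2 ratio was -0.78, under 2-fold, with S100a8 and S100a9 under 0.1%. Epsti1, an interferon-inducible gene, stood at 13.97 CPM in HIR and 107 CPM in sham, and Popdc2, a cyclic AMP binding protein, at 19.3 CPM and 159 CPM in HIR and sham. The remaining named genes, Tppp3, Defb14, Rtl8a, Smagp, Ypel3 and Asph, had log2 ratios between -1.97 and -1.67.

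**Figure D4:**
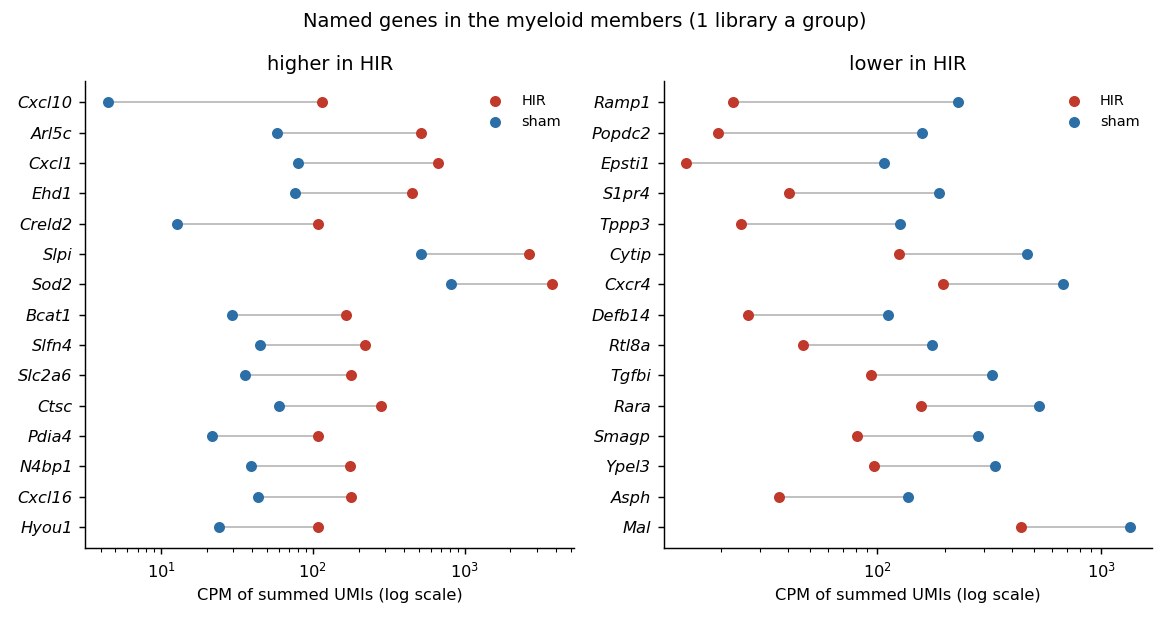
Summed CPM (logarithmic axis) of the 15 named genes higher (left) and the 15 lower (right) in HIR myeloid members, with HIR in red, sham in blue and 1 library per group. Sod2 and Slpi have the highest HIR levels among the higher genes, and Mal the highest sham level among the lower genes.

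Receptors for microbial products were mixed. Of 28 measured pattern recognition genes 2 were over 2-fold higher, Cd14 and Clec4e, and 0 were over 2-fold lower, against 3.02% and 3.41% of all genes, with a median log2 ratio of 0.20. Clec4e, a C-type lectin for mycobacterial glycolipid and dead cells, stood at 38.1 CPM in HIR and 6.99 CPM in sham. Tyrobp, the adaptor with the highest level in the list, stood at 5751 CPM in HIR and 5859 CPM in sham. The myeloid members were chosen partly on Tyrobp, so this level is no independent result.

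Among Fc, complement and scavenger receptors the directions differed. The scavenger receptor Msr1 stood at 53.2 CPM in HIR and 7.63 CPM in sham, and the mannose receptor Mrc1 at 37.2 CPM and 12.7 CPM in HIR and sham. Fcgr1a, the high-affinity IgG receptor, stood at 50.8 CPM in HIR and 125 CPM in sham, and Fcgr2a at 643 CPM and 1331 CPM in HIR and sham. Fcgr1a and Fcgr2a were both over 2-fold lower in HIR. The list of 14 measured genes had a median log2 ratio of -0.05.

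Lysosomal and antimicrobial genes as a group had a median log2 ratio of -0.03. Slpi and Ctsc were over 2-fold higher, and the lysosomal enzymes Lipa and Lgmn were among those over 2-fold lower. Lipa, the acid lipase, stood at 37.8 CPM in HIR and 99.8 CPM in sham. The cathepsin genes Ctsz and Ctsb stood at 1683 and 732 CPM in HIR, and at 888 and 444 CPM in sham.

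Iron and metal genes had a median log2 ratio of 0.45, with 4 of 16 over 2-fold higher and 1 lower, against 3.02% and 3.41% of all genes. The metallothioneins Mt1 and Mt2A, which bind zinc and copper, stood at 303 and 103 CPM in HIR and at 83.9 and 34.3 CPM in sham. Lcn2, which withholds iron from bacteria, stood at 43.1 CPM in HIR and 3.18 CPM in sham. With S100a8 and S100a9 under 0.1% the log2 ratio was 0.20 for Mt1 and 0.25 for Lcn2, against 1.74 and 2.01 over all myeloid members. Mt1 and Lcn2 were thus near equal among cells with few S100 transcripts, and the NF-kB median with the same limit was 1.13.

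Hormone and oxygen responses showed no shared direction. Of 17 measured glucocorticoid-induced genes 4 were over 2-fold higher (Il1r2, Mt1, Mt2A and Ddit4) and 1 over 2-fold lower (Klf9). The shares of all genes were 3.02% and 3.41%, and the list's median log2 ratio was -0.04. Tsc22d3, which mediates anti-inflammatory effects of glucocorticoids, stood at 171 CPM in HIR and 339 CPM in sham. Of 19 glycolysis and hypoxia genes Slc2a6 and Hif1a were over 2-fold higher and Vegfa over 2-fold lower, against the same shares of all genes. Their median was -0.04. Hif1a, the oxygen-sensing transcription factor, stood at 182 CPM in HIR and 50.8 CPM in sham, and Vegfa, one of its targets, at 43.7 CPM and 135 CPM in HIR and sham.

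Antigen presentation genes depended on which cells were included. Of 9 measured MHC class II and costimulation genes Cd40 was over 2-fold higher and Cd80 over 2-fold lower, against 3.02% and 3.41% of all genes. The list's median log2 ratio was 0.31, or 1.30 with S100a8 and S100a9 under 0.1%. Cd40, which receives help from T cells, stood at 87.7 CPM in HIR and 27.3 CPM in sham, and Cd80, a ligand of CD28, at 18.1 CPM and 56.6 CPM in HIR and sham. Cd74, the MHC class II invariant chain, stood at 1597 CPM in HIR and 1369 CPM in sham, and its direction turned with the gate, to a log2 ratio of -0.08 with at least 1 UMI of each gene pair. Type I interferon genes had 12 of 39 listed rows measured, with 1 over 2-fold higher (Gbp5), against 3.02% of all genes. Their median was 0.10, which was 0.50 with S100a8 and S100a9 under 0.1% and -0.32 with them under 10%.

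Repair genes and lineage factors had medians below 0. Of 12 repair and alternative activation genes Timp1 and Mrc1 were over 2-fold higher, Tgfbi, Vegfa and Areg over 2-fold lower, against 3.02% and 3.41% of all genes, and the median was -0.34. Timp1, an inhibitor of matrix proteases, stood at 111 CPM in HIR and 27.3 CPM in sham. Among 23 transcription factors of the lineage only Tfec, a factor of the MiT family, was over 2-fold higher and only Rara over 2-fold lower. The shares of all genes were 3.02% and 3.41%. The median of these factors was -0.26, against 0.07 over all gated members. Cebpb, which drives monocyte differentiation, stood at 3916 CPM in HIR and 3239 CPM in sham, and Spi1, which encodes PU.1, at 563 CPM and 444 CPM in HIR and sham.

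The remaining lists had median log2 ratios between -0.31 and 0.32. S100 and annexin genes other than S100a8 and S100a9 had a median of -0.31 and 0 of 13 past 2-fold, against 3.02% higher and 3.41% lower of all genes. S100a6 stood at 5047 CPM in HIR and 6830 CPM in sham. Adhesion genes had a median of -0.27, with Icam1, which binds leukocyte integrins, at 378 CPM in HIR and 178 CPM in sham. Lipid mediator genes had a median of 0.32, with the leukotriene B4 receptor Ltb4r at 36.3 CPM in HIR and 8.26 CPM in sham. The other medians were 0.27 for oxidase and antioxidant genes, 0.20 for survival and death genes, 0.05 for immediate early and heat shock genes, -0.20 for coagulation genes, -0.23 for cell cycle genes (0.05 with TMM scaling) and -0.30 for 2 measured marrow granule genes. Tissue factor (F3), which starts clotting, had 80 UMIs in HIR and 4 UMIs in sham.

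The ratios in monocytes were set beside those in nonclassical monocytes (36 HIR and 131 sham cells), C1q macrophages (125 HIR and 162 sham cells) and neutrophils (1250 HIR and 290 sham cells), gated by their own markers. Sod2 had higher levels in HIR in all of these, with 3550 CPM in HIR and 912 CPM in sham nonclassical monocytes, 1010 CPM and 507 CPM in HIR and sham macrophages, and 5320 CPM and 1350 CPM in HIR and sham neutrophils. The monocyte ratio over that of macrophages was 2.33 (2.08 to 2.60), and over that of nonclassical monocytes 1.19 (1.05 to 1.34). Arl5c was close between both monocyte kinds, at 574 CPM in HIR and 46.3 CPM in sham nonclassical monocytes, and the ratio of ratios was 0.721 (0.463 to 1.12). Nonclassical cells are few in HIR (36), and the intervals count UMIs and not cells, so they do not reflect this.

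Ratios differed between the types for other genes. Ccl2 stood at 2660 CPM in HIR and 2430 CPM in sham macrophages, and the ratio of monocytes was 0.305 (0.285 to 0.327) times that of macrophages. In neutrophils Ccl2 was also lower in HIR, at 62.4 CPM in HIR and 518 CPM in sham, and likewise in nonclassical monocytes, at 57.4 CPM in HIR and 327 CPM in sham. The monocyte ratio of Ccl2 was 1.91 (1.04 to 3.49) times that of nonclassical monocytes. Rara stood at 110 CPM in HIR and 122 CPM in sham macrophages and at 516 CPM and 609 CPM in HIR and sham neutrophils. Its monocyte ratio was 0.349 (0.298 to 0.409) times the neutrophil ratio and 0.454 (0.328 to 0.629) times that of nonclassical monocytes. Ldha, a glycolytic enzyme, stood at 1405 CPM in HIR and 786 CPM in sham classical monocytes, and at 642 CPM and 949 CPM in HIR and sham nonclassical monocytes, a ratio of ratios of 2.64 (2.16 to 3.24).

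Other genes leaned the same way in more than 1 type. Ramp1 stood at 162 CPM in HIR and 369 CPM in sham nonclassical monocytes, with the monocyte ratio 0.225 (0.144 to 0.351) times theirs. Cxcr4 stood at 143 CPM in HIR and 329 CPM in sham neutrophils, with the monocyte ratio 0.669 (0.551 to 0.811) times theirs. Slpi differed most in macrophages, at 121 CPM in HIR and 5.94 CPM in sham, and there the monocyte ratio was 0.253 (0.124 to 0.519) times theirs.

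**Figure D5:**
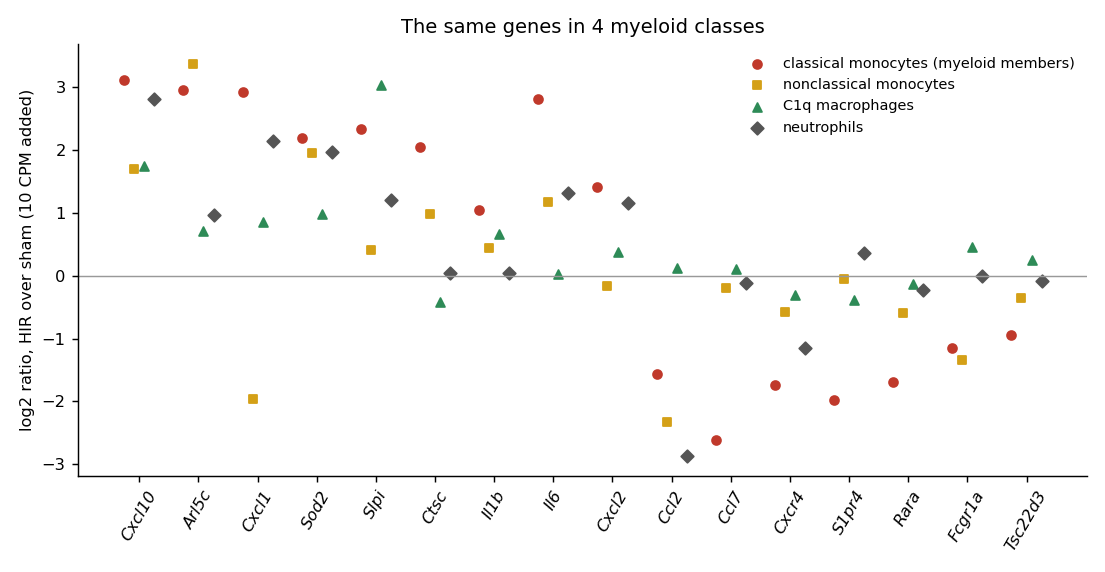
Log2 ratio of HIR over sham (10 CPM added, vertical axis) of 16 genes in classical monocytes (myeloid members), nonclassical monocytes, C1q macrophages and neutrophils, with 1 point per cell type. Sod2 lies above 0 in all of them, while Ccl2 and Rara lie well below 0 in classical monocytes and near 0 in C1q macrophages.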

How the data were processed

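Single lung cells of 2 mouse libraries (HIR and sham) were profiled by droplet sequencing. The deposited values are counts (UMIs per gene and barcode), per the file headers written by cellranger 5.0.0; the submitters' processing notes name Cell Ranger 6.0, STAR, Seurat 4.0 and mm10. The HIR library held 9499 barcodes and 50801778 UMIs, the sham library 10719 barcodes and 59566745 UMIs, and no barcode had fewer than 500 UMIs. No barcode was removed as a doublet; an alternative left out those with the highest Scrublet scores (scanpy 1.11.5, 0.8% per 1000 barcodes).

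The gate was applied to raw UMIs. Myeloid members had under 5 stromal, under 5 endothelial, under 3 B cell and under 3 T cell UMIs, under 2% Scgb1a1 and under 2% hemoglobin UMIs, and at least 10 UMIs of Tyrobp and Fcer1g. UMIs were summed over cells and divided by the total (CPM). Ratios have exact Poisson intervals, shares exact binomial (Clopper-Pearson) intervals, and ratios of ratios normal intervals on the log scale, all at 95% and for counting error only. Intervals were checked on simulated data drawn with counting error alone and no spread between cells. That check cannot show how well they hold for these cells.

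The members and the gene lists were chosen with earlier results of these data known. Named genes are the 15 with the largest log2 ratio in each direction among genes with 100 CPM in either library, 50 UMIs over both, an interval that leaves out 1 and a level no lower than 5% of that in the gated class where the gene is highest. Not named were gate genes, other classes' markers, genes of immune receptors, hemoglobin and sex chromosomes, and those of ribosomal proteins and mitochondria. In each list the 3 measured members with the largest ratios and the one with the highest level were eligible, and other members were named after their values were seen. Of 684 listed symbols, 36 were not analysed here, and a few list members are not reported here. Alternatives covered the gate, the denominator, thinning, doublets, scaling (with edgeR 4.0.16 TMM factors), pseudocount and minimum level.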

Additional observations from a re-analysis of the deposited data

Results flagged for a closer look

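Genes named in the myeloid members were listed here where the ratio pointed the other way in one of the compared cell types and both counting intervals left out 1, with at least 5 UMIs in each library. With 1 library per group the difference was not tested. S1pr4 was lower in HIR monocytes and higher in HIR neutrophils, at 265 CPM in HIR and 205 CPM in sham neutrophils, a ratio of 1.29 (1.07 to 1.58). Its monocyte ratio was 0.166 times the neutrophil ratio. Ctsc was higher in HIR monocytes and lower in HIR C1q macrophages, at 107 CPM in HIR and 146 CPM in sham macrophages, a ratio of 0.733 (0.578 to 0.927). Its monocyte ratio was 6.38 times the macrophage ratio. Under that minimum, Cxcl1 was higher in HIR classical monocytes, while nonclassical monocytes had 1 UMI (5.22 CPM) in HIR and 35 UMIs (49.1 CPM) in sham, a ratio of 0.106 (0.00262 to 0.632).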

How the results depend on the processing

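With 1 library per group, differences between animals, surgery and library preparation cannot be told apart from the effect of HIR. No paired analysis was possible because each group has 1 library, and no replicate could be left out. Depth limits what can be said of genes with few UMIs, whose intervals are wide. The alternatives that asked for at least 2 UMIs of Fcnb and of Vcan, set another S100 limit (0.1% or none) or kept only myeloid members were added after seeing the data.

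The share ratio over all gated members (1.38) was 1.61 with at least 3 and 1.13 with at least 1 UMI of each gene pair, 1.10 with S100a8 and S100a9 under 2%, 1.60 with no such limit, 0.770 under 0.1%, 2.65 with Fcnb and Vcan, 1.67 for myeloid members, 1.59 among barcodes under 5% S100, and 2.14 and 2.68 with barcodes thinned to 2000 and 1000 UMIs. Among myeloid members (1.67) it was 1.39 with at least 1 UMI of each pair, 1.28 under 2%, 0.825 under 0.1%, 2.71 with Fcnb and Vcan, and 2.11 and 2.66 with thinning to 2000 and 1000 UMIs.

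Genes over 2-fold lower among all members (209) numbered 132 under 2% and 90 under 0.1% S100, and 368 with a pseudocount of 1 CPM; among myeloid members (158) they numbered 248 under 0.1% and 304 with 1 CPM. The NF-kB median over all members was 1.34 with 1 CPM, and ranged from 0.95 to 1.15 among myeloid members over 17 alternatives. Of the 30 genes named in myeloid members, 29 stayed over 2-fold in their direction under each of those alternatives, the exception being Mal. The size of the ratio was less stable, and 11 of the 30 were moved over 1.5-fold by an alternative. Under 0.1% S100 the log2 ratio went from -1.67 to -1.04 for Asph and from 2.06 to 3.06 for Slfn4.

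Medians closer to 0 than their counting error were not counted as reversed, but crossed 0 over all members for interferon (-0.12; -0.24 to 0.39), adhesion (-0.02; -0.27 to 0.23), immediate early (-0.03; -0.08 to 0.25), S100 and annexin (-0.05; -0.31 to 0.10), Fc and scavenger (-0.07; -0.40 to 0.06), oxidase (0.04; -0.12 to 0.34) and lysosomal genes (0.04; -0.11 to 0.19). Among myeloid members such medians ran from -0.32 to 0.50 for interferon genes, -0.18 to 0.04 for cytokines, -0.25 to 0.18 for Fc and scavenger receptors, -0.10 to 0.17 for glucocorticoid-induced genes, -0.07 to 0.06 for glycolysis, -0.03 to 0.21 for immediate early and -0.15 to 0.06 for lysosomal genes. Reversed medians over all members were 0.17 for cell cycle (doublets out), 0.05 for repair (under 0.1%), -0.01 (Fcnb and Vcan), -0.02 (mean over cells) and -0.26 (myeloid members) for lineage factors, and, for myeloid members, -0.15 for cytokines and -0.04 for both glucocorticoid and glycolysis genes. In myeloid members Scgb1a1, which their definition limits, turned to 0.42, and Igfbp4 and Pola2 to 0.04. Among myeloid members Cd74 turned to -0.08 (at least 1 UMI of each pair), -0.00 (under 10%), -0.04 (at most 10% mitochondrial UMIs) and -0.04 (no S100 limit). Under 0.1% Stmn1 turned to -0.75, Serpinb1a to -0.26 and Junb to 0.18, and the cell cycle median turned to 0.05 with TMM and 0.02 with a minimum of 10 UMIs. The cause was not tested.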
